A study of Mus musculus with 6 samples.

Results

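Neurons share a set of genes for axonal microtubules and filaments, the growth cone, adhesion between axons and the release of transmitter. Here 49 such genes were examined in cells that were sorted as neural crest. They were a given list of gene symbols and were found in the count table through their Ensembl identifiers. All 49 had a row among the 46983 genes of the table, and 43 of them had enough reads to be tested, of 13961 tested genes in all. RNAseq had been run on GFP+ neural crest cells (NCCs) that were sorted by flow cytometry from mouse embryos at E11.25, in 3 control and 3 BAF155/170-deficient libraries. The methods name 3 embryos of each genotype as the source of the cells. All embryos carried Wnt1 Cre/+ and the reporter Rosa26 mTmG/+. The controls were also BAF155 flox/+ and, at the second locus, BAF170 flox/+, so Cre could delete 1 allele of each gene in them too. The deficient embryos were flox/flox for BAF155 as well as for BAF170. Wnt1 Cre acts in the dorsal neural tube and the crest that leaves it, and the mTmG reporter turns on membrane GFP wherever Cre has acted.

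BAF155 and BAF170, encoded by Smarcc1 and Smarcc2, are core subunits of the BAF chromatin remodelling complex, which moves nucleosomes and thereby changes access to regulatory DNA. Crest cells give rise to the neurons and glia of peripheral ganglia as well as to the mesenchyme of the face. A crest cell that becomes a neuron turns on neuronal members of the families of tubulins, microtubule-binding proteins and RNA-binding proteins. The comparison asked how the levels of these neuronal genes differed between control and deficient cells.

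Library totals lay between 8191219 and 11661941 counts in the controls and between 12633319 and 19808620 in the deficient libraries. The sorted population was labelled neural crest, yet markers of macrophages were abundant in every library. Levels are given as CPM, counts scaled to the size of the library. The summed level of the 12 macrophage markers was 12105 to 14037 CPM in controls and 14169 to 15453 CPM in deficient libraries, none of the 12 was at 0, and Ctss and Lyz2 led the list. By comparison, the 20 mesenchymal crest markers summed to 262 to 426 CPM in controls and 157 to 200 CPM in deficient libraries, and the 12 sensory neuron markers to 33.6 to 87.2 and 22.2 to 34.1 CPM. Here and below, values of single libraries stand in the order of replicates 1, 2 and 3. Smarcc1 was at 42.1, 55.0 and 35.1 CPM in controls and at 29.4, 26.4 and 24.5 CPM in deficient libraries, and was called lower. Smarcc2 was at 89.9 to 92.9 CPM in controls and 82.3 to 86.8 CPM in deficient libraries and was not called. Counts over whole genes do not isolate the floxed exons, so these levels are a limited check of the deletion. The part of macrophage RNA in the Smarcc1 and Smarcc2 levels was not tested.

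The promoter sequences below lie before RefSeq starts of Cntn2, Ina and Tubb2a. Cntn2 and Ina were the called genes with the largest falls for which the reference table had an entry. Tubb2a was the tested gene with the smallest difference. Each run is the 250 bases before the first listed RefSeq start, 5′ to 3′ on the strand of the gene, from the RefSeq promoter table of GRCm38.p6. They lie at chr1:132542941-132543190 on the minus strand for Cntn2, chr19:47014431-47014680 on the plus strand for Ina and chr13:34078009-34078258 on the minus strand for Tubb2a. The Cntn2 window falls inside the gene as GENCODE annotates it (chr1:132509427-132543256), so it is not upstream of that longer gene. Capitals mark matches, on either strand, to the E-box CANNTG bound by basic helix-loop-helix factors, the TATA box TATAAA, the CCAAT box, the GC box GGGCGG, and the left part CAGCACC and right part GGACAGC of the RE1 element bound by the repressor REST.
Cntn2: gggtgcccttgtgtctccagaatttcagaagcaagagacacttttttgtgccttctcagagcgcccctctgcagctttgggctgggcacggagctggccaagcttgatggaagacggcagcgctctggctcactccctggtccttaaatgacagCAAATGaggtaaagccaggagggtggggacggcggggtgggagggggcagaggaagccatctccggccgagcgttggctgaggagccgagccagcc
Ina: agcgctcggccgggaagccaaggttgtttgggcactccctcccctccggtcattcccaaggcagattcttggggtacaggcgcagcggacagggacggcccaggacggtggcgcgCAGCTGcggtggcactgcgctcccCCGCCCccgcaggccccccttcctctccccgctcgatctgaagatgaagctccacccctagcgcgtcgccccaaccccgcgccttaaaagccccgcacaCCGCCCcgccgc
Tubb2a: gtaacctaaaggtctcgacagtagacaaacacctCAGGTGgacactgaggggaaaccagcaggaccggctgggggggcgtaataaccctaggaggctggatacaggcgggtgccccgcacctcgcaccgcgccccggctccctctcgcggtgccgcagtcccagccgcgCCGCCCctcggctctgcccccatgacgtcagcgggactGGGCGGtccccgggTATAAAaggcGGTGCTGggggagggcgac

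The Cntn2 window held 1 E-box, the Ina window 1 E-box and 2 GC boxes, and the Tubb2a window an E-box, a TATA box, 2 GC boxes and 1 match to the left part of RE1. Promoter entries existed for 32 of the 49 genes. An E-box was found in 17 of these 32 (53.1%), against 56.6% of the 10094 tested genes with an entry, and a GC box in 18 (56.2%), against 59.2%. The TATA box was found in 6 of the 32 (18.8%), against 6.3%, and the CCAAT box in 9 (28.1%), against 36.5%. Each part of RE1 was found in 4 (12.5%), against 5.97% for the left and 6.05% for the right part. Among the 17 called genes with an entry, the left part was found in 0 and the right part in 2 (11.8%). These shares describe the letters in the windows and were not tested.

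Across the list, 27 of the 43 tested genes were called lower in the BAF155/170-deficient libraries and 0 were called higher. Calls were made with edgeR's quasi-likelihood test over all 13961 tested genes: the Benjamini-Hochberg adjusted p could not exceed 0.1, the log2 fold change had to reach 0.58 in size, and the mean level had to reach 2 CPM. The 43 included 5 genes with a mean under 2 CPM (Stmn3, Stmn4, Snap25, Syt1 and Chgb), which could not be called at any p. Of all tested genes, 4.88% were called lower and 0.0573% higher. All 43 log2 fold changes were below 0, with a median of -1.29 (quartiles -1.48 and -0.93), where the median over all tested genes was -0.02. The largest called fall was that of Dpysl4, a growth cone protein, at 4.12-fold, and the smallest difference was that of Tubb2a, at 1.01-fold. Adjusted p-values of the 27 lay between 0.0534 and 0.0996, close to the limit, and those of the other 16 between 0.107 and 0.956. At an adjusted p of at most 0.05, 0 of the 43 were called. An unadjusted p under 0.05 in edgeR was found for 35 of the 43, against 3813 of all 13961 tested genes.

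The number of calls depended on single libraries. Without control replicate 1, or without deficient replicate 3, 0 genes of the list were called. In these fits 34 and 28 genes of the list had an unadjusted p under 0.05, against 2547 of 14318 and 2200 of 14280 tested genes. Omitting control replicate 2 left 5 calls in the list and omitting deficient replicate 2 left 6. There were 23 calls when deficient replicate 1 was omitted and 33 when control replicate 3 was, while the share of all genes called lower rose to 7.24% and 8.45%. The median log2 fold change stayed between -1.55 and -0.91 in these 6 fits. Over all genes, the 681 calls lower became 0, 61 and 1219 when control replicates 1, 2 and 3 were omitted in turn, and 1030, 219 and 17 when deficient replicates 1, 2 and 3 were. The omission of deficient replicate 1 thus lowered the calls of the list and raised those of all genes.

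Control replicate 2 stood apart from the other controls. It had the highest level of all 6 libraries for 41 of the 43 tested genes, as against 30.2% of all tested genes, and control replicate 3 was the lowest control for 40 of the 43. The summed level of the 49 genes was 847, 1370 and 668 CPM in controls and 534, 438 and 416 CPM in deficient libraries. The sums did not overlap, and the deficient mean was 0.481 of the control mean (exact two-sided permutation test, p = 0.1, the smallest that 3 against 3 libraries allow). The macrophage sum was lowest in the same control replicate 2, and all 12 macrophage markers had a log2 fold change above 0 (0.15 to 0.21, median 0.19, 0 called, 1 past the adjusted p alone). The part of this shift in the lower levels of the neuronal genes was not tested. In RNA from sorted populations, fewer neurons and less neuronal RNA per cell cannot be told apart.

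**Figure D1:**
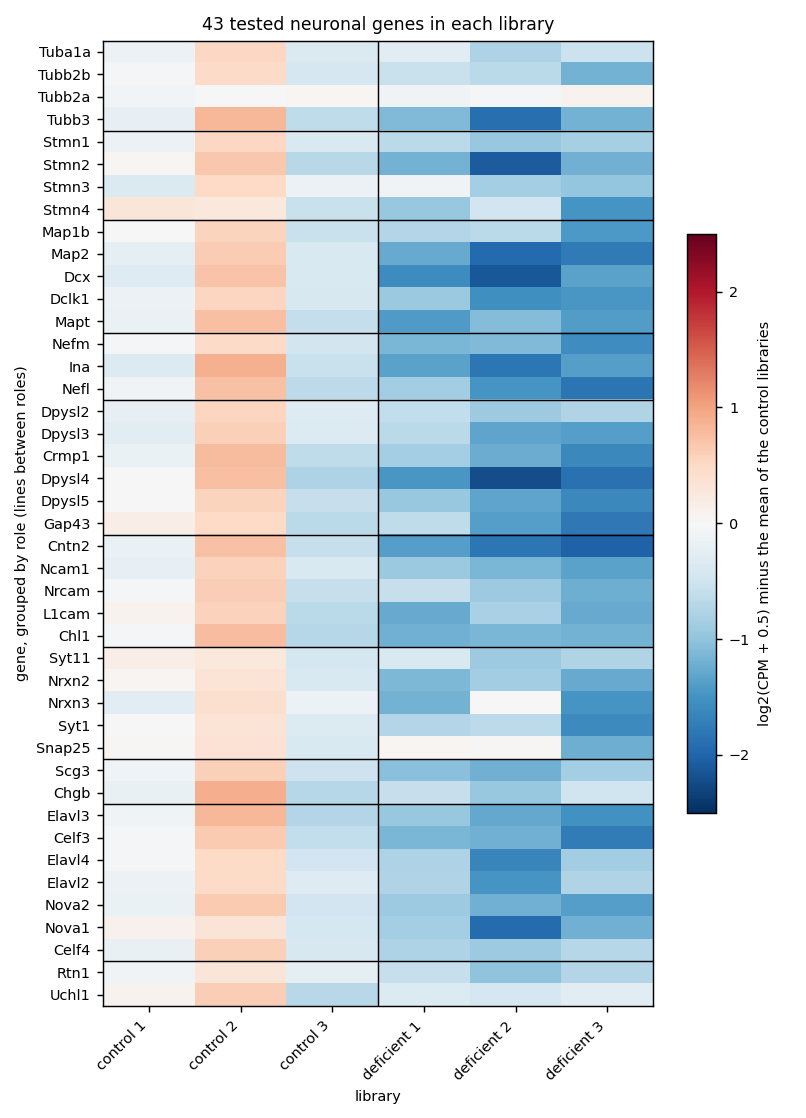
Each row is 1 of the 43 tested neuronal genes, grouped by role, and each column 1 library; colour gives log2(CPM + 0.5) minus the mean of the 3 control libraries. The deficient libraries are blue in nearly every row, Tubb2a is pale throughout, and control replicate 2 is the reddest column.

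The direction also depended on what the libraries were scaled to. Relative to the bulk of all genes (TMM scaling) the list was lower. The libraries were also scaled to 12 mesenchymal crest markers, those of the list of 20 with a mean of at least 2 CPM over all libraries. This gave 0 calls lower and 4 higher in the list, against 5 lower and 10854 higher among all 13961 tested genes. The median was 0.18 for the list and 1.34 for all tested genes. Relative to the median gene, 42 of the 43 were lower under either scaling. A change of scale shifts all log2 fold changes by a similar amount, so this count could hardly differ between the scalings. The 4 genes of the list called higher under the marker scaling were Tubb2a, Tuba1a, Syt11 and Uchl1. Under TMM the median of the mesenchymal markers was -1.13 (log2). When they set the scale, 14 of the 43 neuronal genes stayed below 0, among them Dpysl4 at -0.56, Cntn2 at -0.39 and Map2 at -0.31, and 29 lay above 0. By role, only the medians of the intermediate filaments (-0.22) and microtubule-associated proteins (-0.08) stayed below 0, and those of the other 8 groups turned. All role groups stayed below the median of all genes, a position that a shared shift leaves nearly fixed.

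Tubulins form the microtubule wall, and none of the 4 was called. Per kilobase of exon they were among the most abundant genes of the list, with control means of 56.7 CPM per kb for Tuba1a, 23.8 for Tubb2a, 19.8 for Tubb2b and 18.6 for Tubb3. Tubb3, the class III β-tubulin widely used as a neuronal marker, had 27.3, 56.5 and 20.3 CPM in controls and 14.4, 8.13 and 13.6 CPM in deficient libraries. The groups did not overlap and the means differed 2.88-fold, but the spread among controls was wide (34.7 ± 19.2 CPM, SD, n = 3) and the gene missed the threshold (log2 fold change -1.50 ± 0.49 (SE), edgeR, Benjamini-Hochberg adjusted p = 0.14). Tuba1a, the main α-tubulin of growing neurons, had 88.8, 142 and 76.4 CPM in controls and 81.5, 57.9 and 68.2 CPM in deficient libraries. These groups overlapped, at a log2 fold change of -0.56 ± 0.28. For Tubb2b the values were 42.4, 61.1 and 32.5 CPM against 29.8, 27.3 and 19.0 CPM, without overlap and at a log2 fold change of -0.83 ± 0.29, also not called. Tubb2a was level across the libraries, at 36.4, 38.7 and 39.7 CPM in controls and 35.8, 37.6 and 40.5 CPM in deficient libraries (log2 fold change -0.01 ± 0.08). Its sign changed with the processing, to 0.01 with DESeq2 and 0.05 with library totals. The tubulin genes resemble each other: 65.1% of the 100-base windows of Tuba1a transcripts, 36.9% of those of Tubb2a and 26% of those of Tubb2b also occur in transcripts of other genes, so reads could be split between them.

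**Figure D2:**
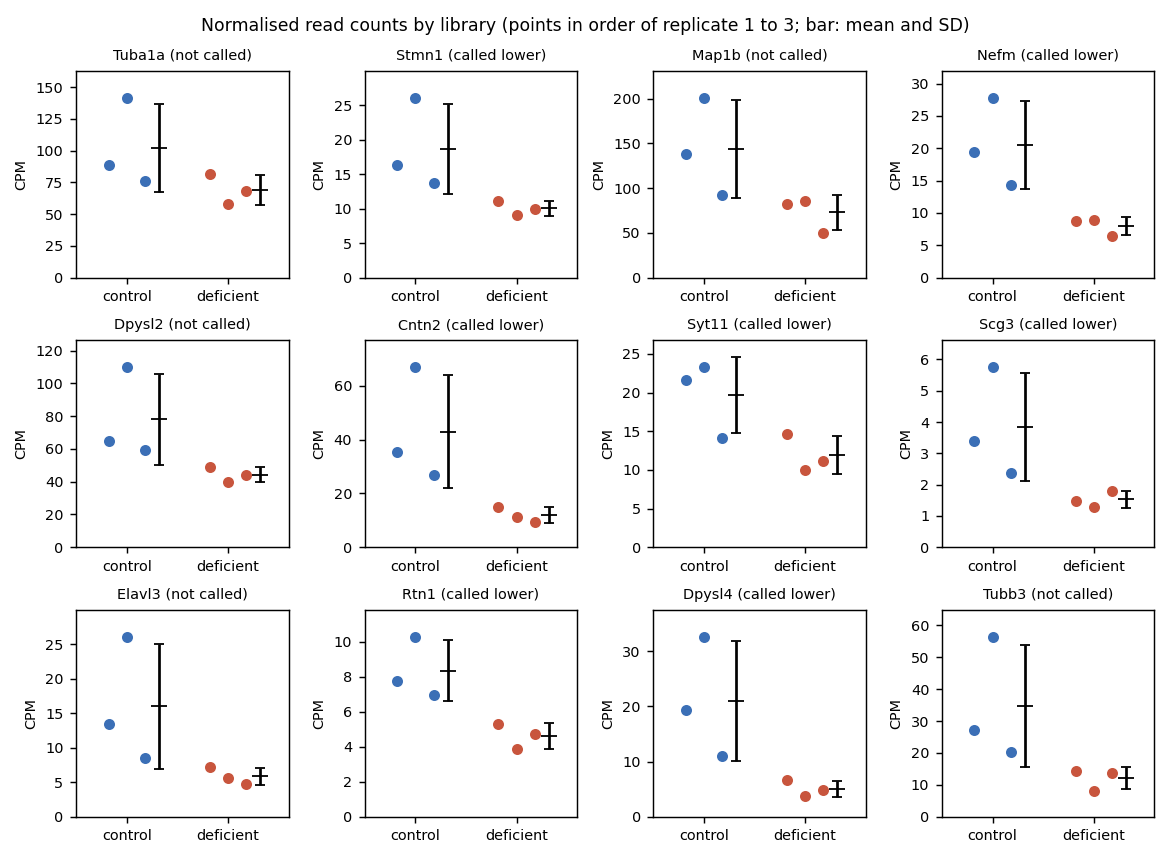
Normalised read counts (CPM, linear axis from 0) of the most abundant tested gene of each role and of Dpysl4 and Tubb3, with 1 point per library and the mean ± SD beside each group (n = 3). Control replicate 2 is the highest point in every panel, and Syt11 and Tuba1a are the panels in which the groups overlap.

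Stathmins bind free tubulin dimers and favour microtubule disassembly; 2 of the 4 were called lower. Stmn2, which acts in growing axons, had 9.04, 14.3 and 5.25 CPM in controls and 3.60, 1.71 and 3.56 CPM in deficient libraries, a 3.22-fold fall (log2 fold change -1.66 ± 0.41, edgeR, Benjamini-Hochberg adjusted p = 0.0775). Stmn1, the most broadly expressed of the family, fell from 16.3, 26.1 and 13.7 CPM to 11.1, 9.04 and 9.92 CPM (1.86-fold, edgeR, Benjamini-Hochberg adjusted p = 0.0775). Neither pair of groups overlapped. Stmn3 and Stmn4 rested on 14 to 24 and 7 to 22 counts per library, overlapped between groups and were not called. A transcript of another gene, Gm11223, shares 12.8% of the windows of Stmn1.

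Of the 5 proteins that bind and stabilise microtubules, 4 were called lower. Dcx, doublecortin, is a marker of young migrating neurons; it had 27.8, 56.9 and 26.4 CPM in controls against 11.4, 7.64 and 13.5 CPM in deficient libraries (log2 fold change -1.75 ± 0.41). Map2, a protein of dendrites, went from 39.7, 74.1 and 36.0 CPM to 19.4, 12.0 and 13.6 CPM (-1.73 ± 0.37), with its lowest control well above its highest deficient library. Dclk1, a kinase related to doublecortin, had 10.8, 17.8 and 9.03 CPM against 6.11, 3.85 and 4.08 CPM (-1.42 ± 0.28). The gene for tau, Mapt, which marks axons, was at 4.57, 9.10 and 3.28 CPM against 1.64, 2.20 and 1.66 CPM (-1.59 ± 0.37). In none of these 4 did the groups overlap, and their adjusted p-values lay between 0.0534 and 0.0919 (edgeR, Benjamini-Hochberg). Map1b, which is made early in axon growth, had the highest CPM of the list (138, 201 and 92.5 CPM against 82.4, 86.1 and 50.3 CPM). Its groups did not overlap, yet it was not called (-0.98 ± 0.38, edgeR, Benjamini-Hochberg adjusted p = 0.197).

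Neuronal intermediate filaments give axons their calibre. All 3 that could be tested were called lower, without overlap of the groups. Nefm, the medium neurofilament subunit, had 19.5, 27.8 and 14.4 CPM in controls and 8.69, 8.98 and 6.41 CPM in deficient libraries (2.56-fold, log2 fold change -1.35 ± 0.25, edgeR, Benjamini-Hochberg adjusted p = 0.0534). It was called in 4 of the 6 fits that left out a library, more than any other gene of the list. Ina, α-internexin, is the filament protein that appears before the neurofilaments in many neurons, and its promoter window is printed above. Its levels were 7.98, 19.4 and 6.81 CPM against 3.76, 2.57 and 3.66 CPM (3.43-fold, -1.75 ± 0.42). On the opposite strand, Nt5c2 overlaps 14.1% of the exon bases of Ina. Nefl, the light subunit, had 5.42, 10.03 and 3.53 CPM against 2.98, 1.77 and 1.28 CPM (3.15-fold, -1.66 ± 0.44). Nefl and Nefm are neighbours on opposite strands, and 32.8% of the exon bases of Nefl and 19.2% of those of Nefm overlap the other gene; the strand setting of the counting is not given. Nefh, the heavy subunit of mature axons, had 0 to 3 counts per library, and Prph, the peripherin of peripheral neurons, had 7, 1 and 2 counts in controls and 1, 2 and 1 in deficient libraries. Neither was tested.

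The growth cone group holds Gap43, a membrane protein of the advancing axon tip, and the collapsin response mediator family, which links guidance signals to microtubules. Of these 6 genes, 3 were called lower. Dpysl4 had 19.4, 32.6 and 11 CPM in controls and 6.66, 3.73 and 4.89 CPM in deficient libraries (log2 fold change -2.03 ± 0.45, edgeR, Benjamini-Hochberg adjusted p = 0.0828). Even its lowest control lay above its highest deficient library. Dpysl5 had 16.9, 24.9 and 11.2 CPM against 8.46, 6.42 and 5.17 CPM (2.64-fold), also without overlap. Gap43 had 7.98, 10.2 and 4.19 CPM against 4.31, 2.38 and 1.66 CPM (2.67-fold). It was called although deficient replicate 1 lay slightly above control replicate 3. Dpysl2, the most abundant of the family here, had 64.7, 110 and 59.6 CPM against 48.6, 39.5 and 44.2 CPM, a 1.77-fold difference that missed the threshold (edgeR, Benjamini-Hochberg adjusted p = 0.133). Dpysl3 and Crmp1 also had separate groups, at log2 fold changes of -1.17 ± 0.36 and -1.36 ± 0.44, and were not called.

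Cell adhesion molecules of axons were called lower in all 5 cases that could be tested. Cntn2, also named TAG-1, marks young axons; it had 35.3, 66.9 and 26.8 CPM in controls and 15.1, 11.1 and 9.45 CPM in deficient libraries, a 3.62-fold fall (log2 fold change -1.85 ± 0.43, edgeR, Benjamini-Hochberg adjusted p = 0.0924). This was the largest called fall after that of Dpysl4. The neural cell adhesion molecule Ncam1 had 21.9, 38.0 and 19.4 CPM against 13.2, 11.2 and 9.73 CPM (2.32-fold). L1cam, which holds axon bundles together, had 9.57, 13.6 and 5.42 CPM against 3.45, 4.89 and 3.47 CPM (2.43-fold). Its close homologue Chl1 was scarce, at 3.40, 6.42 and 1.97 CPM against 1.25, 1.34 and 1.28 CPM (3.04-fold). The groups of these 4 did not overlap. Nrcam had 9.89, 16.1 and 6.73 CPM against 6.74, 5.25 and 4.08 CPM (2.03-fold), with control replicate 3 just below deficient replicate 1. Cntn1 had 5 to 13 counts per library and was not tested.

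**Figure D3:**
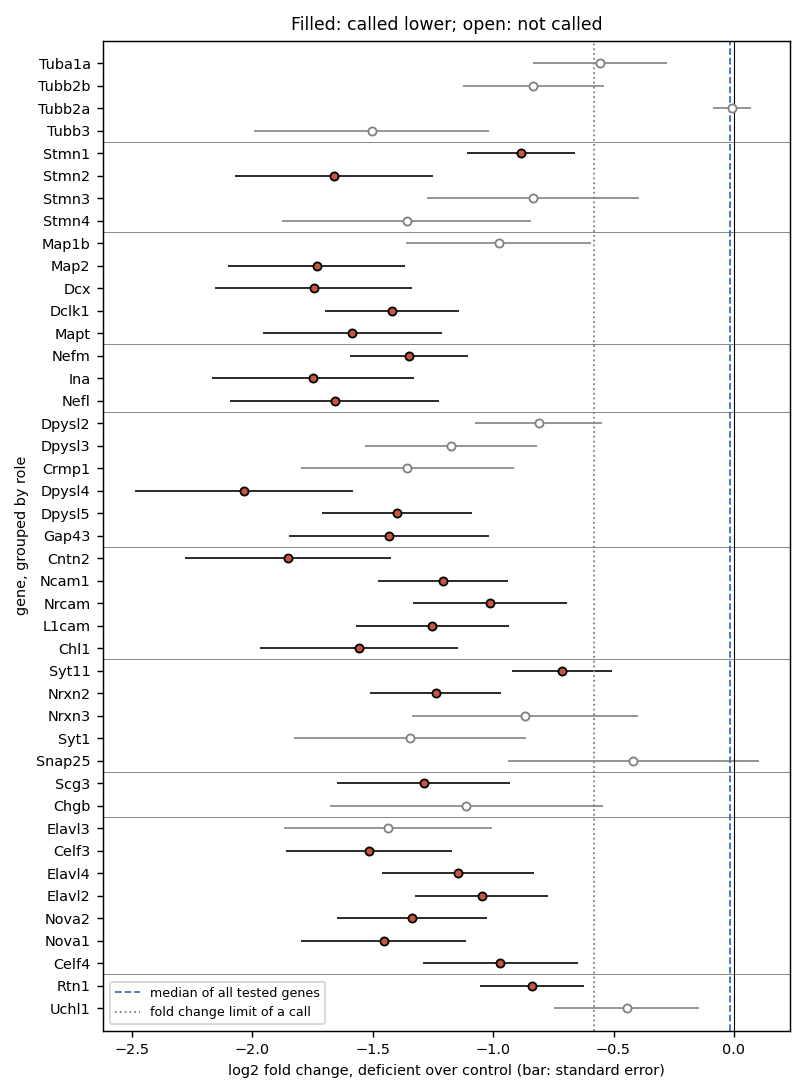
Log2 fold change (deficient over control) of the 43 tested genes with its standard error; filled points were called lower and open points were not, the dashed line is the median of all tested genes and the dotted line the fold change limit of a call. All 3 tested intermediate filament genes and all 5 tested adhesion genes are filled, and no tubulin is.

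Synaptic and secretory genes were scarce in these libraries. The neurexin Nrxn2, an adhesion protein of the presynaptic membrane, had 5.96, 7.36 and 4.27 CPM in controls and 2.35, 2.93 and 2.09 CPM in deficient libraries (2.39-fold, log2 fold change -1.24 ± 0.27, edgeR, Benjamini-Hochberg adjusted p = 0.057). Syt11, a synaptotagmin that does not sense calcium, had 21.6, 23.3 and 14.1 CPM against 14.6, 10.02 and 11.2 CPM (1.65-fold); it was called while its groups overlapped. Nrxn3 overlapped, with deficient replicate 2 at 4.09 CPM above control replicates 1 and 3, at 3.30 and 3.61 CPM. Snap25, a SNARE protein of vesicle fusion, rested on 9 to 28 counts per library and had a log2 fold change of -0.42 ± 0.52, which became 0.04 without deficient replicate 3. The calcium sensor Syt1 (7 to 20 counts per library) had separate groups at -1.35 ± 0.48 and could not be called, as its mean level was under 2 CPM. Syt4 had 4, 9 and 8 counts in controls and 2, 0 and 2 in deficient libraries, too few to be tested. Dense-core granules store peptide hormones, and of their 4 genes only Scg3 was called (3.40, 5.75 and 2.38 CPM against 1.49, 1.28 and 1.80 CPM, 2.52-fold, no overlap). Chgb overlapped between groups, and Chga, with 6, 14 and 11 counts against 4, 3 and 6, and Scg2, with 1 to 4 counts per library, were not tested.

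Neuronal RNA-binding proteins control splicing and the stability of neuronal transcripts, and 6 of the 7 were called lower. None of the 7 overlapped between groups, whereas 16.4% of all tested genes had every deficient library below every control and 15% had every one above. Of the Hu proteins, Elavl4 had 12.2, 17.9 and 8.86 CPM in controls and 7.13, 3.67 and 6.65 CPM in deficient libraries (2.24-fold), and Elavl2 had 9.36, 14.7 and 8.29 CPM against 6.03, 3.42 and 6.03 CPM (2.09-fold). Elavl3, found in most neurons, had 13.5, 26.1 and 8.45 CPM against 7.21, 5.68 and 4.70 CPM and just missed the threshold (log2 fold change -1.44 ± 0.43, edgeR, Benjamini-Hochberg adjusted p = 0.107). For this gene control replicate 2 lay far above the other controls. The splicing regulator Celf3 had 12.2, 20.2 and 8.12 CPM against 5.48, 5.19 and 3.42 CPM (2.88-fold), and Celf4 had 3.51, 6.42 and 2.95 CPM against 2.19, 1.96 and 2.28 CPM (2-fold). The Nova proteins, which bind YCAY elements in neuronal exons, were lower in both forms. Nova1 had 6.81, 8.03 and 4.51 CPM against 3.29, 1.28 and 2.47 CPM (2.75-fold), and Nova2 had 7.66, 14.05 and 6.07 CPM against 4.39, 3.48 and 3.04 CPM (2.55-fold). Some 31.7% of the exon bases of Nova2 overlap an antisense gene, Gm26821.

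Rtn1, a reticulon of the neuronal endoplasmic reticulum, had 7.76, 10.3 and 6.98 CPM in controls and 5.33, 3.85 and 4.75 CPM in deficient libraries (1.80-fold) and was called. Uchl1, an abundant ubiquitin hydrolase of neurons, was not: its values were 6.81, 10.03 and 3.78 CPM against 4.93, 4.64 and 5.22 CPM, with control replicate 3 the lowest of all 6 libraries (log2 fold change -0.45 ± 0.30). An antisense transcript, Uchl1os, covers 18.1% of its exon bases.

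Over the list, 32 of the 43 tested genes had every deficient library below every control, against 16.4% of all tested genes. Of the 27 called genes, 24 did, and a call itself depends on how well the groups separate. Of the 43 tested genes, 39 reached the cutoff of the filter on low counts (0.823 CPM) in all 6 libraries, all 27 called genes among them, and none reached it in the controls alone.

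Most cells express relatives of these genes with general roles. Of 19 broadly expressed paralogs, 0 were called in either direction and the median log2 fold change was 0.08 (range -0.27 to 0.28). On adjusted p alone, with no limit on the fold change, Celf1 was lower (-0.23) and Tuba1c higher (0.28), where 7.75% of all tested genes were lower and 4.18% higher. To compare relatives within a library, which does not depend on any scaling between libraries, log2 ratios of counts were formed for 11 pairs. The ratio of Map2 to Map4 was -2.25, -1.25 and -2.41 in controls and -3.35, -4.16 and -3.97 in deficient libraries, a difference of -1.86. The ratio of Nefm to Vim, the general intermediate filament of mesenchyme, differed by -1.51, that of Tubb3 to Tubb5 by -1.24 and that of Celf3 to Celf1 by -1.22. The ratio of Elavl4 to Elavl1 differed by -1.02. In 9 of the 11 pairs the groups did not overlap, each with an exact two-sided permutation p of 0.1, the smallest possible with 3 against 3 libraries (Benjamini-Hochberg adjusted p = 0.122 over the 11 pairs), so the design cannot reach 0.05. The pairs Snap25 with Snap23 (-0.70, exact permutation p = 0.6) and Uchl1 with Uchl3 (-0.26, exact permutation p = 0.2) overlapped. A ratio within a library can also move with the make-up of the sorted population, and the part of the macrophage RNA in it was not tested.

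**Figure D4:**
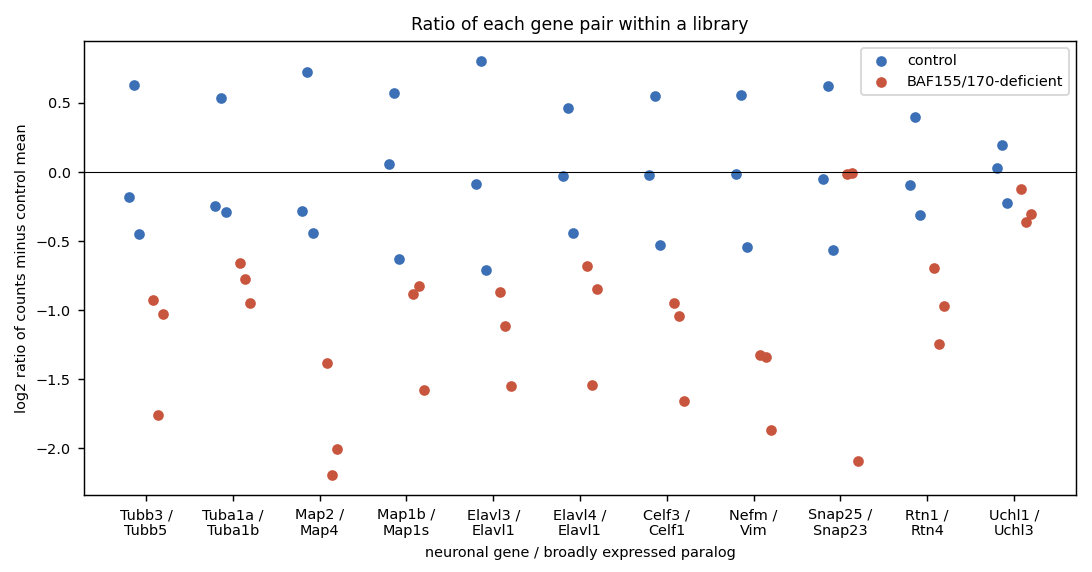
Log2 ratio of the counts of a neuronal gene to those of a broadly expressed relative in each library, minus the mean of the 3 controls (0 on the vertical axis). Deficient libraries lie below all controls in 9 of the 11 pairs; Snap25 with Snap23 and Uchl1 with Uchl3 overlap.

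A further list held 85 neuronal and synaptic genes outside the 49. Of its 72 tested genes, 17 were called lower and 0 higher, the median log2 fold change was -0.84, and 9 lay above 0. Among the largest called falls were those of Islr2, a membrane protein of growing axons (5.21, 8.56 and 2.46 CPM in controls against 1.17, 1.41 and 1.19 CPM, log2 fold change -2.06) and the complexin Cplx2 (-1.94). Some genes of this list had close means in both groups, such as Basp1 at 336 CPM in controls and 346 CPM in deficient libraries, which was picked after its values were seen.

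Markers of other cell types were examined in the same fit. The median log2 fold change was -1.13 over 17 tested mesenchymal crest markers (11 called lower), -0.97 over 10 sensory neuron markers (3 called), -0.94 over 6 autonomic markers (0 called), -0.98 over 5 glial crest markers (1 called) and -0.83 over 11 neural tube markers (2 called). On adjusted p alone, 12 mesenchymal, 3 sensory, 3 autonomic, 1 glial and 3 neural tube markers were lower, against 7.75% of all tested genes. The 3 autonomic ones, Gata2, Gata3 and Ret, were not called because their mean levels lay below 2 CPM. Summed levels overlapped between the groups for the sensory neuron markers (33.6 to 87.2 CPM in controls, 22.2 to 34.1 CPM in deficient libraries) and the glial crest markers (30.4 to 62.5 and 25.2 to 35.6 CPM). The neural tube sums, 135 to 155 and 128 to 137 CPM, also overlapped but were mostly Lhx2, at 82.9 to 101 CPM in controls and 99.7 to 110 CPM in deficient libraries. Without Lhx2, an omission chosen after its values were seen, the other 12 neural tube markers summed to 53.9, 66.2 and 36.2 CPM against 35.6, 32.6 and 17.2 CPM, with no overlap. The erythroid markers, which do not belong to the crest, had a median log2 fold change of -1.73 over 5 tested genes (0 called). Their sums were 23.1, 58.9 and 15.2 CPM in controls and 13.4, 8.55 and 14.1 CPM in deficient libraries, again highest in control replicate 2, and none of the 6 was at 0 in any library. The part of a lower share of crest-derived cells, or of the RNA of red blood cells, in the levels of the neuronal genes was not tested, and whether the 49 genes fell more than other crest genes was not tested either.

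**Figure D5:**
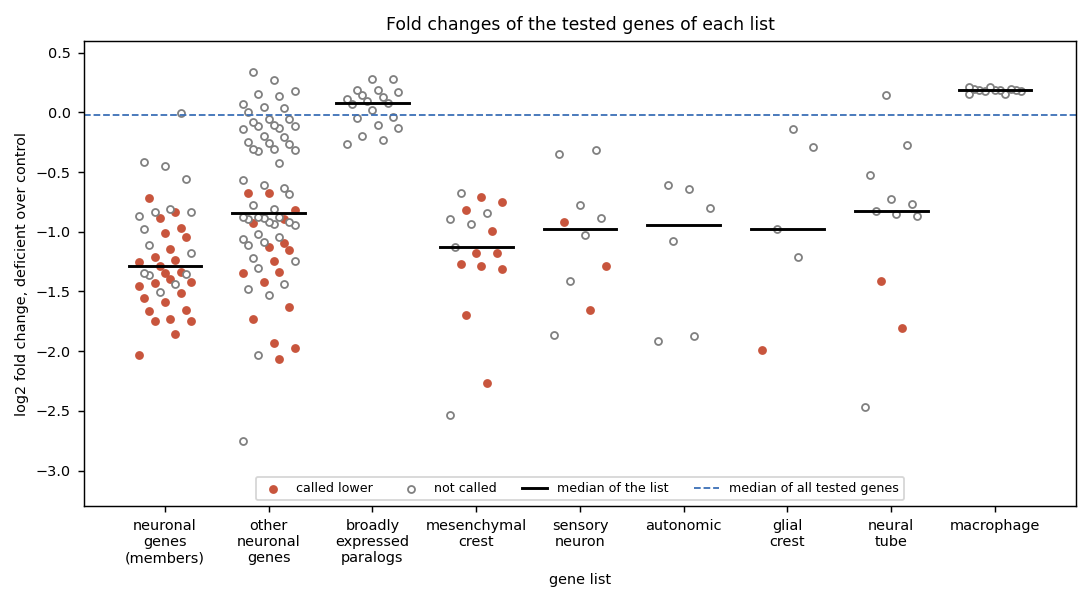
Log2 fold changes (deficient over control) of the tested genes of each list, 1 point per gene, filled where called lower; black bars are list medians and the dashed line is the median of all tested genes. The medians of the 49-gene list (-1.29), the other neuronal genes (-0.84) and the crest markers lie below the line, and those of the broadly expressed paralogs (0.08) and macrophage markers (0.19) above it.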

How the data were processed

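The authors sorted GFP+ cells, made strand-specific poly(A) libraries, trimmed adapters (cutadapt 1.18), aligned paired reads to GRCm38 with STAR and counted them per gene with featureCounts. The deposited values are whole-number counts per gene without normalization. The annotation release, the strand setting and the handling of reads that map to several genes are not given in the sources used here. Names, positions and exon lengths came from GENCODE mouse release 21 by Ensembl identifier, which named 46488 rows; the rest held at most 0.0706% of a library's counts.

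In R 4.3.3, genes were kept by filterByExpr of edgeR 4.0.16 (minimum count 10, minimum total 15, group size 3), scaled by TMM and tested with a robust quasi-likelihood fit on condition only, all 6 libraries together. Calls used the limits the study set (adjusted p up to 0.1, log2 fold change from 0.58 in size, mean level from 2 CPM); the study itself tested with limma. Standard errors came from the quasi-likelihood F statistic. Ratios had a prior count of 0.5. DESeq2 1.42.0, limma 3.58.1 (voom and trend), other scalings, filters and limits, a replicate block and omission of each library were alternatives. On simulated data with 200 of 13704 tested genes changed by 2 on the log2 scale, edgeR recovered 90% with 14 false calls. These changes were larger than the list's median of -1.29, and the counts of each gene were drawn independently, without shifts shared between genes. The recovery therefore does not give the power or error rate for the list. Depth was 8191219 to 19808620 counts, and a floor of 3 counts was 0.142 to 0.401 CPM. Libraries of a group differed by more than sampling noise.

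Every listed gene is accounted for; of the other lists, the called genes with the largest change are named, up to 3 per list, and 1 that met this rule is not reported here. The 49 genes, their roles and all lists were chosen with earlier results of these data known. Marker lists not described in the report were endothelial (4 tested, median log2 fold change 0.06) and neutrophil genes (3 tested, 0.51), with 0 calls each. Figures were drawn with matplotlib 3.10.9.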

Additional observations from a re-analysis of the deposited data

How the results depend on the processing

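The counts of calls were the least stable values. With all 6 libraries, 27 genes of the list were called lower by edgeR, 33 by DESeq2 (26 shared), 32 by limma-voom (25 shared), 27 by limma-trend (27 shared), 28 with library totals (26 shared) and 26 with no filter on low counts (24 shared). In these fits 4.88%, 6.19%, 5.94%, 5.39%, 4.95% and 3.02% of all genes were called lower. An adjusted p of at most 0.05 left 0 calls in the list and 4 in the other neuronal genes. In the list 35 genes had an unadjusted p under 0.05, as had 3813 of all 13961 tested genes. A filter of 5 CPM in 3 libraries left 4 of 29 tested genes (2.11% of all genes), and 9 of the other neuronal genes. Without the fold and CPM limits, 1 broadly expressed paralog was lower. Leaving out 1 library gave 0 to 33 calls in the list and 0 to 25 in the other neuronal genes. The median over the broadly expressed paralogs moved to 0.14 with library totals. Sampling depth limits the statements on Nefh, Prph, Scg2, Syt4, Cntn1 and Chga.

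Scaling to 12 mesenchymal crest markers raised the median of all genes to 1.34 and that of the list to 0.18. The median of the other neuronal genes rose to 0.61 and that of the broadly expressed paralogs to 1.43. This scaling gave 0 calls lower in the list and in the other neuronal genes, and 4 higher in the list. Among all 13961 tested genes it gave 5 calls lower and 10854 higher. Under it, log2 fold changes turned to 1.35 for Tubb2a, 0.59 for Tubb2b, 0.87 for Tuba1a, 0.55 for Stmn1, 0.52 for Stmn3, 0.0663 for Stmn4, 0.37 for Elavl2, 0.0509 for Elavl3, 0.28 for Elavl4, 0.48 for Map1b, 0.0913 for Nefm, 0.11 for Crmp1, 0.62 for Dpysl2, 0.24 for Dpysl3, 0.0373 for Dpysl5, 0.24 for L1cam, 0.43 for Nrcam, 0.23 for Ncam1, 0.19 for Nrxn2, 0.58 for Nrxn3, 0.97 for Snap25, 0.047 for Syt1, 0.68 for Syt11, 1.03 for Uchl1, 0.55 for Rtn1, 0.18 for Scg3, 0.39 for Chgb, 0.48 for Celf4 and 0.11 for Nova2. Tubb2a, near 0 throughout, was at 0.00921 with DESeq2, 0.0522 with library totals, 0.0402 with no filter and -0.0609 to 0.0292 when 1 library was left out. Snap25 was at -0.72 to 0.0413 when 1 library was left out, the last without deficient replicate 3.

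The replicate numbers in the sample titles were the only numbering checked, and the deficient columns of the table are numbered 2 to 4. Deviations of same-numbered libraries from their group means correlated at 0.03, -0.03 and 0.29, and not every library correlated best with its own number. With 3 libraries per group these correlations constrain each other, so they cannot decide whether the libraries were paired. With the replicate number as a block, 29 genes of the list were called lower, 24 of them shared with the 27, and 1143 (8.19%) rather than 681 of all genes.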
